A study of Danio rerio with 9 samples.

Results

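Benzanthrone (BEZO, 1,9-benz-10-anthrone), an oxygenated polycyclic aromatic hydrocarbon with a single ketone group, was compared with its vehicle in whole zebrafish embryos by sequencing of polyadenylated RNA. The comparison used the 3 BEZO and the 3 Control libraries of a series of 9, and all 18860 genes with enough reads out of 32434 in the count table. Results are given for genes outside the lists for the aryl hydrocarbon receptor, the NRF2 antioxidant response and the eye, which held 200 tested genes and left 18660. The 3717 tested genes without a symbol could not be placed on any list and count among the 18660. Embryos of every group were wild-type 5D fish, held 20 to a vial in 2 mL in the dark from 6 hours post fertilization (hpf) and taken at 48 hpf. BEZO embryos received 10 µM of the compound in 1% dimethyl sulfoxide (DMSO), and Control embryos the same solvent without a compound. The third group, BaAQ, received 10 µM benzanthracene-7,12-dione, a quinone, also in 1% DMSO. It is used here to show where BEZO differed from a related compound. Its libraries also enter the estimate of the spread behind every test of BEZO against Control in the main fit. One library stands for 1 vial of pooled embryos, the labels call the vials biological replicates, and the spawning day of each is not given. The labels put the exposure at 37 °C, which was not checked.

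Vertebrate cells answer shortage of amino acids, misfolded protein in the endoplasmic reticulum and other insults with the integrated stress response, in which phosphorylation of the initiation factor eIF2 slows translation in general while the transcription factor ATF4 is translated more. ATF4 and its partners then raise genes for amino acid import, amino acid synthesis and tRNA charging, together with a second tier of transcription factors such as ATF3, CEBPB and DDIT3. The unfolded protein response of the endoplasmic reticulum has further arms, through ATF6 and XBP1, that raise chaperones of that compartment.

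Libraries of BEZO and Control held 9620666 to 14435626 counted reads. Their log2 levels correlated across genes at 0.991 to 0.993 within a group and at 0.987 to 0.989 between BEZO and Control. With a threshold of 0.05 for the adjusted p (edgeR quasi-likelihood test, Benjamini-Hochberg over all tested genes) 1214 genes (6.44%) differed, 582 (3.09%) higher and 632 (3.35%) lower in BEZO. These shares of all tested genes are the background for the count of every list below. With library totals alone as the scale, an alternative added after seeing the data, 766 were higher and 507 lower, so the balance of rises and falls depends on the scaling. Numbers of calls were lower in each of the 6 fits without 1 library, where a group also had fewer vials. Without BEZO 3 there were 345 higher and 424 lower, without BEZO 1 399 and 401, without Control 2 385 and 436, and without Control 3 374 and 449. The part of the smaller group in this was not tested. Of the called genes, 554 kept their call in all 6 fits that each left out 1 library. Groups did not overlap for 1202 of the 1214 called genes, and absence of overlap was also a condition for most genes named by rule. It therefore does not set a named gene apart from other called genes. The lists set aside gave 91 calls among their 200 genes, 75 of them lower. Outside them 1123 of 18660 genes (6.02%) were called, 566 higher and 557 lower. Most changes were modest, with 76 of these higher and 98 lower by more than 2-fold, and 5 in each direction by more than 4-fold. In whole embryos, fewer cells of a type and less RNA per cell cannot be told apart, which holds for every result below.

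**Figure D1:**
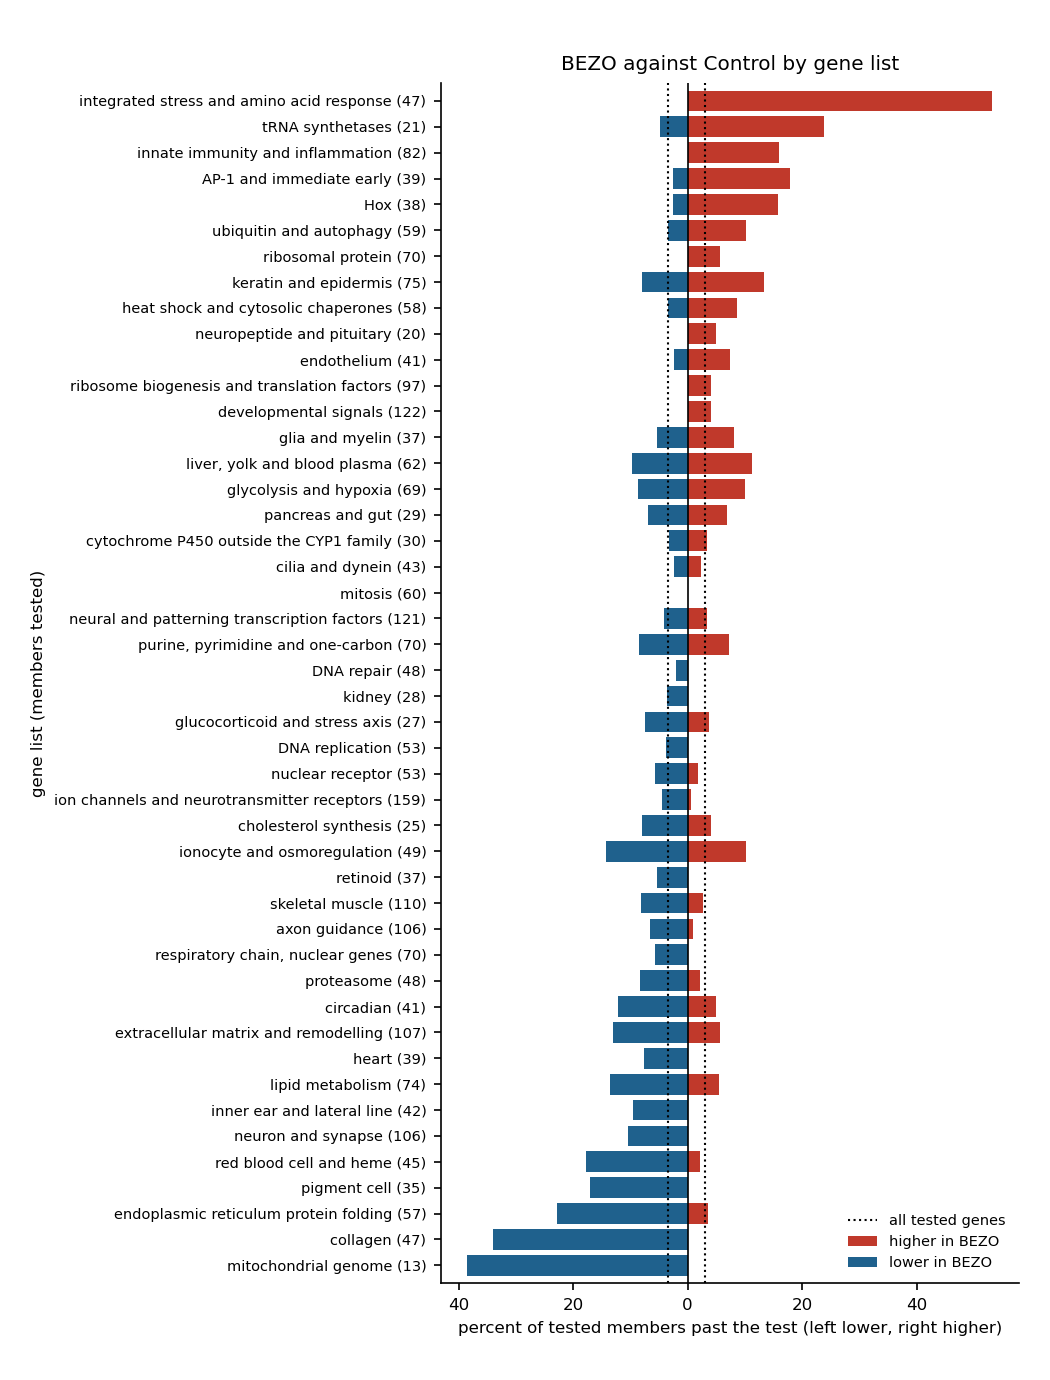
Percent of the tested members of each described gene list with at least 10 tested genes, the lists set aside not drawn, that were higher (right) or lower (left) in BEZO than in Control at an adjusted p under 0.05. Dotted lines mark the shares among all tested genes, 3.09% higher and 3.35% lower. Among the lists drawn, the integrated stress list lies farthest right with 53.2% of its 47 members and collagen and mitochondrial genome lists farthest left with 34.0% and 38.5%. Lists and members were chosen with earlier results of these data known.

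Genes of the integrated stress and amino acid response were higher in BEZO embryos. Of 47 tested members, 25 (53.2%) rose and none fell, against 3.09% higher among all tested genes, and 37 had positive estimates with a median log2 fold change of 0.38 where the median of all tested genes was -0.001. The count was 21 to 25 when single libraries were left out, 25 with DESeq2 and 26 with library totals alone. List members were chosen with earlier results of these data known, so the share is a description and not an independent test. Transcription factors of the second tier were among the members that rose. ATF3, a stress-induced repressor and activator of the ATF family, was at 9.01, 8.51 and 9.79 CPM (counts relative to library size, scaled with TMM factors) in the Control libraries and at 17.5, 24.6 and 22.5 CPM in BEZO. Every BEZO library lay above every Control library, and the log2 fold change was 1.24 ± 0.17 (SE, adjusted p = 8.78e-05). CEBPB, a partner of ATF4 that also acts in inflammation, was at 20.8, 21.4 and 19.0 CPM in Control and 36.7, 34.4 and 35.8 CPM in BEZO. The 2 groups were narrow and far apart, with a log2 fold change of 0.81 ± 0.09 (adjusted p = 7.04e-06). DDIT3, known as CHOP and linked to cell death under prolonged stress, moved less, from 30.0, 31.3 and 24.8 to 40.1, 37.4 and 40.6 CPM without overlap (0.46 ± 0.10, adjusted p = 0.00426). The ATF4 relatives atf5a and atf5b rose by 0.67 ± 0.09 and 0.87 ± 0.13 on the log2 scale, cebpg by 0.55 ± 0.07, and nupr1b, a small chromatin protein of stressed cells, by 0.75 ± 0.12. For atf4b, one of the zebrafish ATF4 genes, the log2 fold change was 0.21 ± 0.07 and did not pass (adjusted p = 0.0701). ATF4 is governed mainly at translation, which transcript levels do not show.

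Feedback and growth-restraining genes of the same response rose too. The gene sesn2, a sestrin that restrains the growth kinase mTORC1 when leucine is short, was at 6.99, 4.83 and 7.25 CPM in Control and 16.1, 18.9 and 13.8 CPM in BEZO. Its lowest BEZO library was well above its highest Control library, and the log2 fold change of 1.37 ± 0.21 (adjusted p = 3.11e-04) was the largest on the list. TRIB3, a pseudokinase that feeds back on ATF4 and DDIT3, was higher by 0.51 ± 0.09, and ppp1r15a, whose product brings the phosphatase that resets eIF2, by 0.51 ± 0.10. CHAC1, which degrades glutathione, rose from 144, 121 and 147 to 177, 263 and 193 CPM, with BEZO 2 the highest library (0.62 ± 0.11, adjusted p = 0.00125). STC2, a secreted stanniocalcin induced by stress in mammals, rose by 0.98 ± 0.12.

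**Figure D2:**
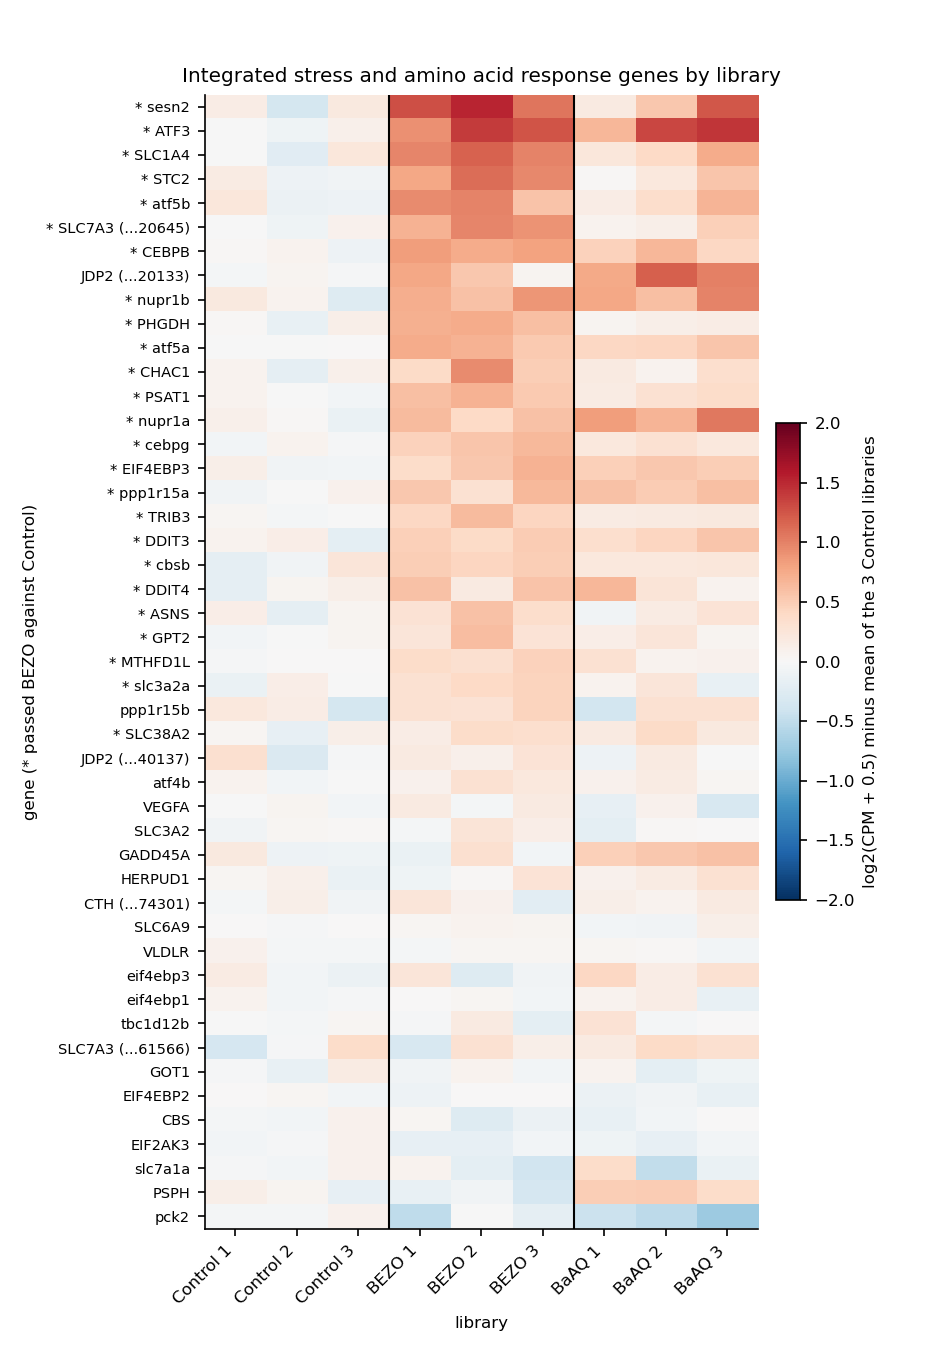
Level of the 47 tested integrated stress and amino acid response genes in each of the 9 libraries, as log2(CPM + 0.5) minus the mean of the 3 Control libraries, ordered by the log2 fold change of BEZO. Red fills the 3 BEZO columns for the 25 genes marked with an asterisk, which passed. BaAQ columns are also red for some of them, such as ATF3 and CEBPB. Where a symbol has several genes the last digits of the identifier are given.

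Import and synthesis of amino acids, the metabolic arm of the response, followed the same direction. SLC7A3 (ENSDARG00000020645), a carrier of arginine and lysine, was at 25.6, 24.3 and 27.4 CPM in Control and 41.8, 51.3 and 48.3 CPM in BEZO. All BEZO libraries exceeded all Control libraries by a wide gap (0.87 ± 0.11, adjusted p = 1.58e-05). The second gene with that symbol, ENSDARG00000061566, had a log2 fold change of -0.01 ± 0.31 and did not pass. SLC1A4, a carrier of alanine, serine and cysteine, went from 67.0, 57.8 and 79.1 to 133, 153 and 135 CPM, with no overlap (1.05 ± 0.11, adjusted p = 3.14e-06). Outside the list, SLC43A2 (ENSDARG00000061120), a carrier of large neutral amino acids such as leucine, was among the most secure rises. It was at 172, 177 and 158 CPM in Control and 427, 363 and 425 CPM in BEZO, and even the lowest BEZO library was 2.05 times the highest Control library (1.26 ± 0.07, adjusted p = 2.06e-09). The BaAQ libraries also lay above every Control library, at 332, 320 and 357 CPM. PHGDH and PSAT1 catalyse consecutive steps of serine synthesis. PHGDH was at 49.9, 44.6 and 53.7 CPM in Control and 80.5, 82.4 and 74.9 CPM in BEZO, and PSAT1 at 80.7, 76.7 and 73.9 and 117, 125 and 111 CPM. Neither gene overlapped between groups, with log2 fold changes of 0.68 ± 0.08 (adjusted p = 6.15e-06) and 0.61 ± 0.07 (adjusted p = 9.14e-06). PSPH, the last enzyme of the same pathway, was at -0.18 ± 0.11 and did not pass. Asparagine synthetase, ASNS, rose by 0.42 ± 0.10 (adjusted p = 0.0127), a call that ended without BEZO 2 (adjusted p = 0.076) or without Control 2 (adjusted p = 0.0918).

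Of 21 tested tRNA synthetase genes and their partners, which load amino acids onto tRNA, 5 (23.8%) rose and 1 (4.76%) fell. All tested genes gave 3.09% and 3.35%. Symbols matched 19 of the 42 entries of this list, so the count does not cover the whole family. Without BEZO 2 or without Control 1 the number that rose was 3. AARS1, for alanine, was at 288, 278 and 288 CPM in Control and 411, 402 and 380.1 CPM in BEZO. The groups were tight and did not touch (0.48 ± 0.06, adjusted p = 2.06e-05). IARS1, for isoleucine, rose by 0.54 ± 0.08.

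Enzymes of one-carbon and purine metabolism, which draw on serine and methionine, moved in both directions. Of 70 tested members 5 (7.14%) were higher and 6 (8.57%) lower, against 3.09% and 3.35% of all tested genes. The lower count was 3 without any one of BEZO 1, BEZO 3, Control 2 or Control 3. PAICS, an enzyme of purine synthesis, was at 324, 291 and 317 CPM in Control and 526, 589.7 and 531 CPM in BEZO, a separation far beyond the spread of either group (0.82 ± 0.07, adjusted p = 1.53e-07). ATIC, later in the same pathway, rose by 0.46 ± 0.08. MAT2A (ENSDARG00000037121), which makes S-adenosylmethionine in most tissues, was at 9.43, 5.77 and 7.40 CPM in Control and 16.1, 20.7 and 16.2 CPM in BEZO (1.26 ± 0.16, adjusted p = 2.69e-05). MAT1A, the form of liver, moved the other way, from 257, 275 and 246 to 139, 215 and 153 CPM (-0.62 ± 0.11, adjusted p = 0.00163), and BEZO 2 was the closest to Control. BHMT, which remakes methionine from homocysteine with betaine, rose by 0.51 ± 0.07 to 1396, 1626 and 1437 CPM. MTHFD1L, of the mitochondrial folate pathway and a member of the stress list, rose by 0.38 ± 0.07.

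BEZO was also compared with BaAQ directly in the same fit, where the Control libraries enter the estimate of the spread but not the difference. It called 429 genes (2.27%) higher in BEZO and 483 (2.56%) lower. Of all 47 tested stress list members 9 (19.1%) were higher in BEZO than in BaAQ and 1 (2.13%) was lower. The 9 were all among the 25 that rose against Control, of which none was lower than in BaAQ. Those 25 were selected with the same BEZO libraries, which favours higher BEZO levels in the direct test. Among the 25, the 9 became 5 without BEZO 2 or without BaAQ 1 and 6 with DESeq2. Over all genes called against Control, whether they rose or fell there, the direct test put 126 higher and 216 lower, and the 126 became 79 without BEZO 2. PHGDH stood at 51.4, 53.4 and 54.6 CPM in the BaAQ libraries, below every BEZO library, and the log2 difference of BEZO minus BaAQ was 0.58 (95% interval 0.42 to 0.74) (adjusted p = 7.09e-05). The same difference was 0.64 (95% interval 0.41 to 0.86) for SLC7A3 (ENSDARG00000020645), 0.59 (95% interval 0.36 to 0.82) for SLC1A4, 0.37 (95% interval 0.24 to 0.49) for AARS1 and 0.43 (95% interval 0.26 to 0.60) for IARS1, all past the test. For the transcription factors ATF3 and DDIT3 it was 0.03 (95% interval -0.30 to 0.36) and 0.02 (95% interval -0.18 to 0.22), and neither passed (adjusted p = 0.95 and 0.942). The interval for ATF3 leaves room for a difference in either direction. The sestrin gene sesn2 did not pass either (0.61 (95% interval 0.19 to 1.04), adjusted p = 0.0974), as BaAQ 3 at 15.6 CPM reached the range of BEZO.

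**Figure D3:**
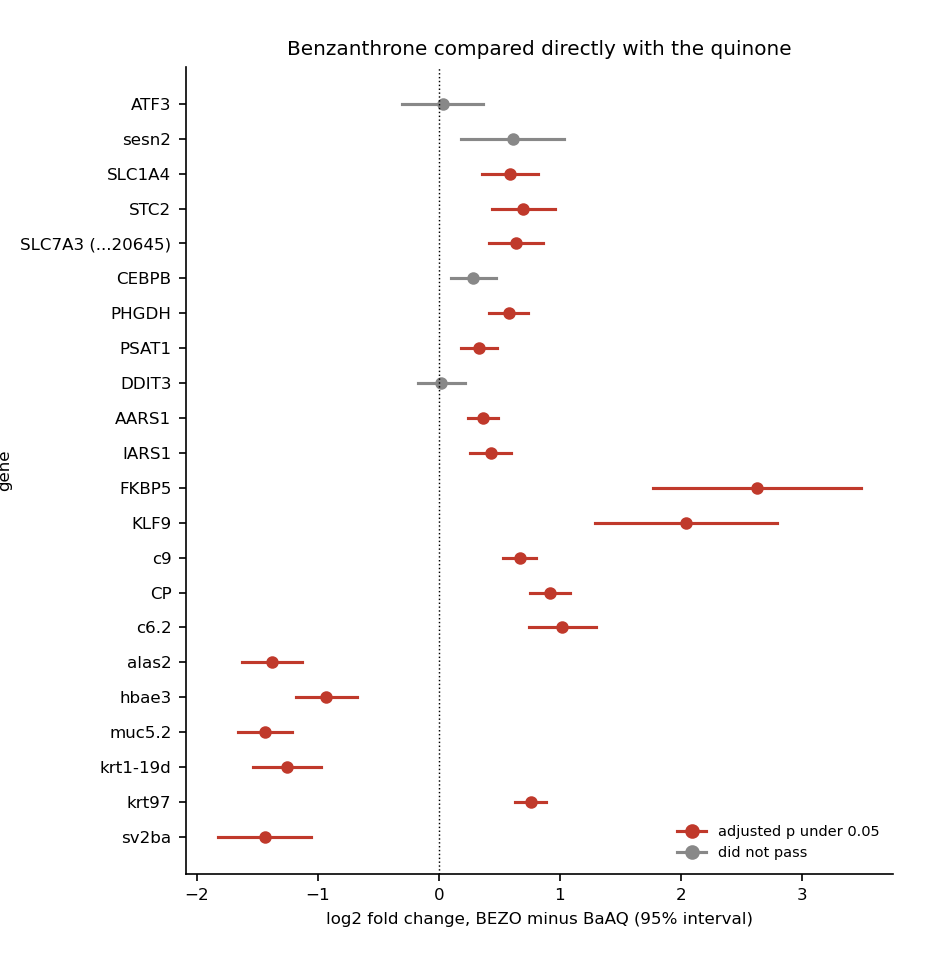
Log2 fold change of BEZO minus BaAQ for 22 genes described in the text, with 95% intervals; red genes passed the direct test at an adjusted p under 0.05 and grey genes did not. Amino acid and tRNA genes lie right of 0, ATF3 and DDIT3 lie across it, and the red blood cell genes alas2 and hbae3 lie to the left.

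While amino acid genes rose, most chaperones of the endoplasmic reticulum did not. Of 57 tested genes for protein folding and entry in that compartment, 13 (22.8%) were lower and 2 (3.51%) higher, against 3.35% and 3.09% of all tested genes. Of the 57 estimates 11 were positive, and the list median log2 fold change was -0.215. The lower count changed with the library left out, to 3 without BEZO 1, 3 without Control 2 and 5 without BEZO 3, but 18 without BEZO 2. It was 20 without a filter on low counts. The 2 higher became 0 with DESeq2, with the replicate block and without any one of the 6 libraries except Control 1, where 1 was left. For the 3 genes PDIA4, SRPRA and HSP90B1 it was BEZO 2 that lay nearest to Control. PDIA4, a disulfide isomerase, was at 138, 148 and 139.6 CPM in Control and 99.0, 126 and 93.9 CPM in BEZO, where BEZO 2 was the highest of the 3 (-0.42 ± 0.09, adjusted p = 0.00431). SDF2L1, a cofactor of the chaperone BiP, was at 20.6, 17.7 and 16.6 and 11.5, 12.2 and 11.5 CPM, and here all BEZO libraries were alike (-0.63 ± 0.12, adjusted p = 0.00169). SRPRA, the receptor subunit that docks ribosomes at the membrane, fell by 0.41 ± 0.08. HSP90B1, the main HSP90 of the compartment, was at -0.38 ± 0.09 (adjusted p = 0.00761), a call that ended without BEZO 1 (adjusted p = 0.0623) or Control 2 (adjusted p = 0.06). HERPUD1, a classic target of the unfolded protein response, was at 0.07 ± 0.11 and did not pass (adjusted p = 0.8).

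Cytosolic heat shock genes changed little as a list, with 5 of 58 (8.62%) higher and 2 (3.45%) lower, against 3.09% and 3.35% of all tested genes. The higher count was 1 without BEZO 3, 1 without Control 2 and 2 without Control 1. The gene hsp70l, an inducible HSP70, was at 8.37, 7.43 and 8.05 CPM in Control and 12.2, 14.0 and 19.6 CPM in BEZO, where BEZO 3 was the highest (0.94 ± 0.17, adjusted p = 0.00145). It has near-identical copies, hsp70.1 and hsp70.3, so its reads may be shared among them. Several lysosomal proteases rose. Of 59 ubiquitin and autophagy genes 6 were higher and 2 lower, and 4 of the 6 encode cathepsins. Cathepsin L, ctsla, was at 731, 834 and 625 CPM in Control and 1118, 1636 and 1244 CPM in BEZO, making it an abundant transcript (0.87 ± 0.11, adjusted p = 2.55e-05). Its lowest BEZO library still exceeded its highest Control library. The aspartic protease gene CTSD rose by 0.37 ± 0.07 and CTSZ by 0.48 ± 0.10. MAP1LC3A, a marker protein of autophagosomes, rose by 0.45 ± 0.08. The related gene ctsl.1 was rarer, at 1.27, 1.23 and 1.45 CPM in Control and 2.68, 5.75 and 3.57 CPM in BEZO (1.58 ± 0.28), and the 2 cathepsin L genes may share reads.

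A pair of glucocorticoid-responsive genes was lower. FKBP5, a co-chaperone of the glucocorticoid receptor and one of its best known targets, was at 42.1, 59.1 and 59.4 in Control, 7.69, 30.3 and 20.0 in BEZO and 4.08, 4.13 and 1.03 CPM in BaAQ. All 3 groups were apart, with BEZO between the others, and BEZO 1 was the lowest BEZO library. The log2 fold change against Control was -1.49 ± 0.27 (adjusted p = 0.00145), though DESeq2 did not call it (adjusted p = 0.198). KLF9, another induced target, was at 4.98, 7.86 and 7.40 CPM in Control and 2.17, 3.98 and 3.27 CPM in BEZO, and in BaAQ at 0.434, 0.850 and 1.03 CPM. Its groups fell in the same order (-1.14 ± 0.23, adjusted p = 0.00375). The direct differences from BaAQ were 2.63 (95% interval 1.77 to 3.49) for FKBP5 and 2.04 (95% interval 1.29 to 2.80) for KLF9 (adjusted p = 3.75e-04 and 0.00138). Of 27 tested genes of the glucocorticoid axis only these and PCK1 were called, 2 lower and 1 higher, and DESeq2 called 1 lower. The precursor gene of corticotropin, POMC, had 1 to 8 reads per library and was not tested.

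Among 41 circadian genes 5 (12.2%) were lower and 2 (4.88%) higher, against 3.35% and 3.09% of all tested genes. The lower count stayed within 1.5 times of 5 whichever library was left out. The repressors nr1d2a and nfil3-6 were lower, nfil3-6 at 12.8, 14.9 and 15.9 CPM in Control and 6.27, 7.60 and 9.59 CPM in BEZO (-0.91 ± 0.14, adjusted p = 3.07e-04). The receptor gene rorab was at 72.8, 72.5 and 75.7 and 54.9, 47.3 and 55.7 CPM (-0.49 ± 0.07, adjusted p = 2.66e-04), and 72.9, 79.0 and 77.0 CPM in BaAQ, so that BEZO was below both other groups (direct difference -0.54 (95% interval -0.69 to -0.38), adjusted p = 1.19e-04). NR0B2, the repressor known as SHP that acts downstream of bile acid signalling in liver, was one of the largest rises. It was at 11.02, 9.81 and 6.17 CPM in Control and 29.0, 21.4 and 30.4 CPM in BEZO, without overlap (1.60 ± 0.16, adjusted p = 1.21e-06).

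Collagen genes that passed were all lower. Of 47 tested members 16 (34.0%) were lower and none higher, against 3.35% and 3.09% of all tested genes. Only 6 had positive estimates, and the median log2 fold change was -0.20. Counts of 10 to 14 were found when single libraries were left out, the lowest without Control 3, and 12 with library totals alone. The chain of type I collagen, col1a1a, is one of the most abundant transcripts of skin, tendon and bone. It was at 4454, 4313 and 4629 CPM in Control and 3462, 3475 and 3402 CPM in BEZO, with very little spread among the BEZO libraries (-0.37 ± 0.07, adjusted p = 0.0011). Type XVII collagen, a component of the hemidesmosomes that hold epidermis to its basement membrane, fell further. Its gene col17a1a was at 238, 229 and 229 CPM in Control and 160.4, 137 and 145 CPM in BEZO (-0.66 ± 0.08, adjusted p = 1.07e-05). The anchoring fibril gene col7a1 fell by 0.65 ± 0.08 and the cartilage gene COL9A1 by 0.47 ± 0.09.

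Other matrix genes were mixed, with 14 of 107 (13.1%) lower and 6 (5.61%) higher, against 3.35% and 3.09% of all tested genes. The lower count was 8 without BEZO 2, BEZO 3 or Control 3, and the higher count 2 without BEZO 2, BEZO 3 or Control 2, 3 without Control 3 and 3 with DESeq2. The actinodin gene and2, needed for the fibres of the larval fin fold, was at 311, 302 and 305 CPM in Control and 179, 188 and 182 CPM in BEZO. Each group was tight and the gap between them wide (-0.74 ± 0.09, adjusted p = 2.88e-05). The proteoglycan genes vcanb and KERA fell by 0.60 ± 0.07 and 0.68 ± 0.09, and tnxba, a tenascin, by 0.98 ± 0.13. The cartilage gene MATN1 was at 33.1, 30.6 and 26.3 CPM in Control and 18.9, 8.90 and 17.0 CPM in BEZO, with BEZO 2 lowest (-0.996 ± 0.18, adjusted p = 0.00127). A fibronectin gene went the opposite way, and values of other genes with its symbol are not given. FN1 (ENSDARG00000006526), which carries cells during wound repair and morphogenesis, was at 393, 405 and 403 in Control, 495, 661 and 603 in BEZO and 253, 291 and 363 CPM in BaAQ. BEZO stood above Control and BaAQ below it, with log2 fold changes against the shared Control libraries of 0.55 ± 0.10 and -0.41 ± 0.10. The direct difference was 0.95 (95% interval 0.74 to 1.17) (adjusted p = 5.18e-06).

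**Figure D4:**
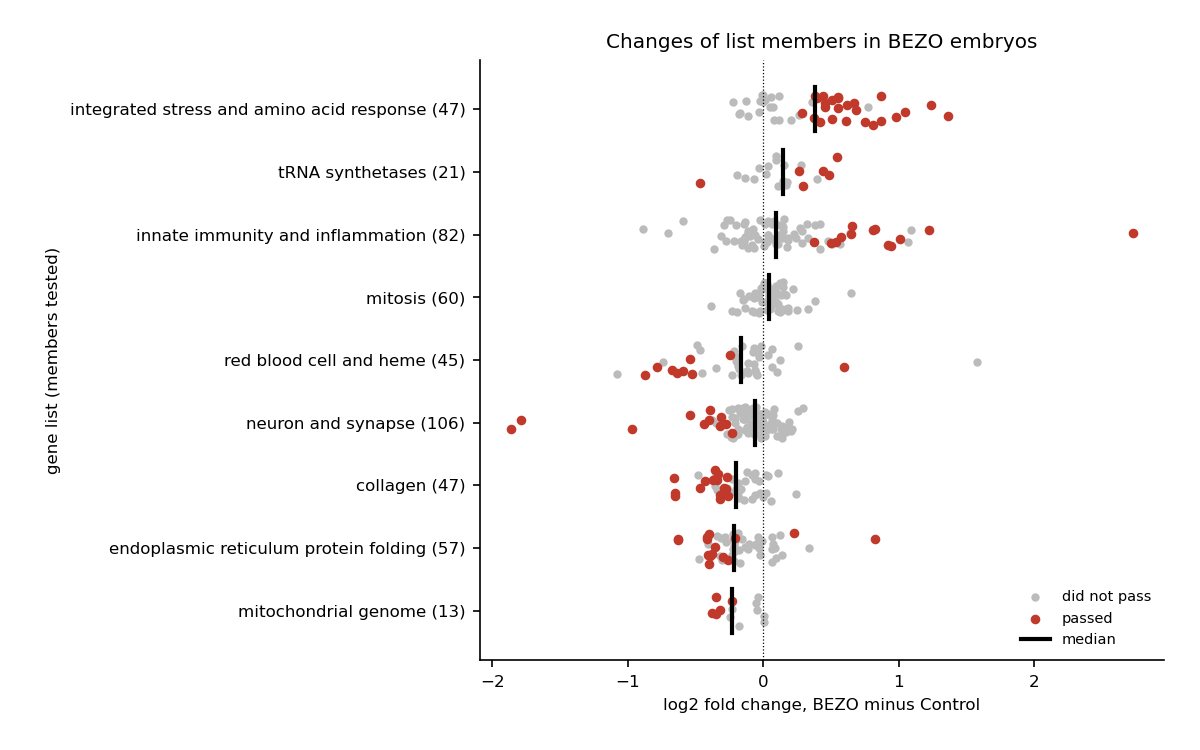
Log2 fold change of BEZO minus Control for every tested member of 9 gene lists (points, spread vertically for visibility), red where the member passed at an adjusted p under 0.05, with the list median as a bar. The stress list is shifted to the right with a median of 0.38, while collagen and endoplasmic reticulum genes sit mostly left of 0 with medians of -0.20 and -0.215 and mitosis genes hold no red point.

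Skin genes changed in both directions. Of 75 keratin and epidermis genes 10 (13.3%) were higher and 6 (8.0%) lower, against 3.09% and 3.35% of all tested genes. Without BEZO 1 the higher count was 6. The keratin gene krt18b was at 119, 149 and 139.9 CPM in Control and 179, 215 and 215 CPM in BEZO (0.57 ± 0.08, adjusted p = 1.14e-04). PKP1, a desmosome plaque protein, rose by 0.58 ± 0.11 and krt97 by 0.33 ± 0.06. The gel-forming mucin gene muc5.2 was at 23.5, 25.5 and 27.3 in Control, 10.29, 12.5 and 11.2 in BEZO and 28.8, 33.5 and 30.1 CPM in BaAQ. Every BEZO library lay far below Control, and every BaAQ library lay above it. The log2 fold change of BEZO was -1.17 ± 0.11 (adjusted p = 4.87e-07). The keratin gene krt1-19d had the same pattern, at 20.0, 18.0 and 21.5 in Control, 12.6, 7.97 and 9.59 in BEZO and 25.3, 23.4 and 23.6 CPM in BaAQ (-0.97 ± 0.13 for BEZO). Keratin copies are similar to each other, so reads may be shared among them.

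Ionocytes, skin cells that take up salts and calcium from the water, gave 5 of 49 listed genes higher and 7 lower. The higher count was 1 without Control 3 and 3 without any one of BEZO 1, BEZO 2, Control 1 and Control 2, or with DESeq2, and the lower count was 4 without Control 1. Of the calcium-related members, STC1 (ENSDARG00000058476), stanniocalcin, which lowers calcium uptake in fish, was at 2.54, 4.90 and 4.43 CPM in Control and 7.28, 8.80 and 7.25 CPM in BEZO. The groups did not overlap (0.93 ± 0.19, adjusted p = 0.00454). The calcium pump gene atp2b1b was at 28.7, 28.3 and 25.8 in Control, 12.2, 10.9 and 13.1 in BEZO and 23.2, 26.6 and 26.1 CPM in BaAQ. It was lower in BEZO than in both other groups, by 1.19 ± 0.10 against Control (adjusted p = 2.09e-07) and with a direct difference from BaAQ of -1.06 (95% interval -1.28 to -0.84). Carbonic anhydrase 2, ca2, which serves both ionocytes and red blood cells, was at 184, 179 and 188 CPM in Control and 115, 117 and 114 CPM in BEZO (-0.67 ± 0.06, adjusted p = 2.71e-07).

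A minority of red blood cell genes was lower in BEZO. Of 45 tested members 8 (17.8%) were lower and 1 (2.22%) higher, against 3.35% and 3.09% of all tested genes, and 36 did not pass. In every fit without 1 library 7 or 8 were lower. ALAS2 makes the first intermediate of heme in red blood cells. Its gene alas2 was at 56.9, 62.4 and 52.1 in Control, 34.6, 34.0 and 30.7 in BEZO and 94.6, 99.2 and 65.7 CPM in BaAQ. No library of one group fell within another group (-0.78 ± 0.12 for BEZO, adjusted p = 2.62e-04). The embryonic alpha globin gene hbae3 was at 709, 681 and 686 CPM in Control and 407, 409 and 315 CPM in BEZO, clearly apart (-0.88 ± 0.12, adjusted p = 9.07e-05). In BaAQ it was at 810.0, 820.2 and 525 CPM, spread across Control. The red cell carbonic anhydrase gene cahz fell by 0.59 ± 0.09 and epb41b, of the membrane skeleton, by 0.64 ± 0.12. SLC4A1 (ENSDARG00000012881), the anion exchanger of the red cell membrane, fell by 0.53 ± 0.10. The beta globin gene hbbe3 rose instead, from 24.4, 26.4 and 24.6 to 34.0, 45.3 and 34.8 CPM (0.60 ± 0.12, adjusted p = 0.0036). Globin copies resemble each other, so single globin values are uncertain. In the direct comparison 12 of the 45 were lower in BEZO than in BaAQ and none higher, against 2.56% and 2.27% of all genes, and 9 to 12 were lower when single libraries were left out. Summed over the list, levels were 2336 to 2346 CPM in Control, 1671 to 1847 CPM in BEZO and 2136 to 2573 CPM in BaAQ.

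Secreted liver products also set the compounds apart. Of 62 liver, yolk and plasma genes 7 (11.3%) were higher and 6 (9.68%) lower in BEZO than in Control, against 3.09% and 3.35% of all tested genes. The higher count was 4 without BEZO 3 or without Control 1. In the direct test 21 of the 62 (33.9%) were higher in BEZO than in BaAQ and 1 (1.61%) lower, against 2.27% and 2.56% of all tested genes. From 19 to 24 were higher when single libraries were left out. Of the 21, 5 were also higher in BEZO than in Control. Summed over the list, levels were 21142 to 21942 in Control, 19689 to 22186 in BEZO and 15824 to 17561 CPM in BaAQ. The sums of BEZO thus overlapped Control, and those of BaAQ lay below both. CP, ceruloplasmin, the copper-carrying ferroxidase of plasma, was at 177, 173 and 179 in Control, 241, 228 and 285 in BEZO and 144, 133 and 122 CPM in BaAQ. Control lay between the others without overlap (0.51 ± 0.08 for BEZO, adjusted p = 2.27e-04). The terminal complement genes c9 and c6.2 showed the same order. For c9 the levels were 221, 214 and 216 in Control, 290.2, 305 and 317 in BEZO and 200.4, 174 and 199 CPM in BaAQ (0.49 ± 0.07, adjusted p = 4.89e-05). The gene c6.2 rose by 0.71 ± 0.12. APOB, the core protein of yolk and liver lipoproteins, fell in BEZO from 1492, 1707 and 1688 to 1102, 1269.9 and 1112 CPM (-0.49 ± 0.07, adjusted p = 1.11e-04) and was lower still in BaAQ, at 859.8, 825 and 834 CPM. CETP, which exchanges lipids between lipoproteins, was at 5.93, 6.63 and 5.95 CPM in Control and 11.5, 12.6 and 16.1 CPM in BEZO, with BaAQ at the Control level (1.105 ± 0.16 for BEZO, adjusted p = 1.10e-04).

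**Figure D5:**
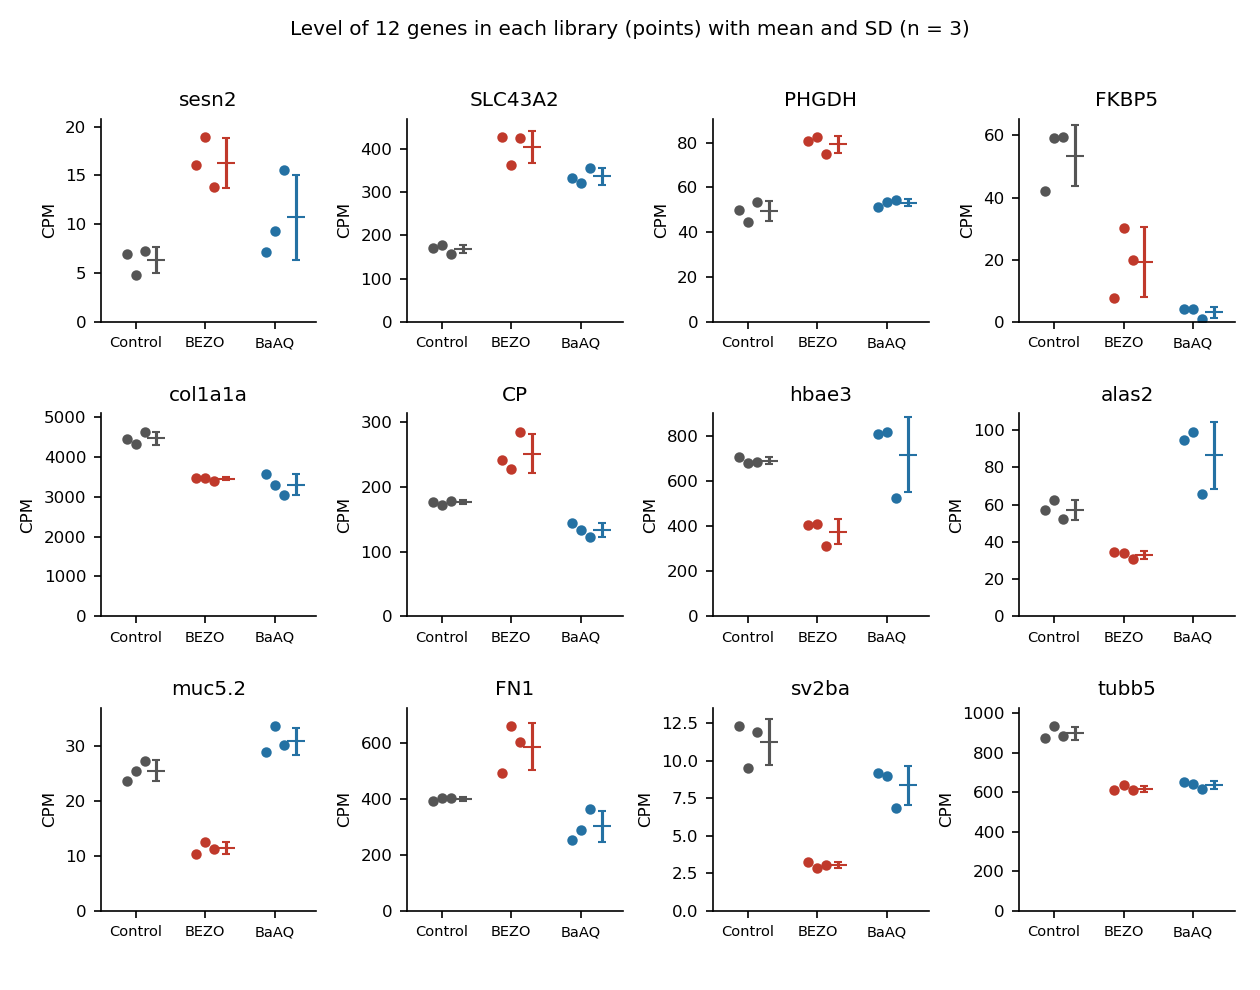
CPM of 12 genes in each library of Control, BEZO and BaAQ (points), with mean and SD beside them (n = 3) on axes that start at 0. BEZO points lie above both other groups for SLC43A2, PHGDH, CP and FN1, below both for hbae3, alas2, muc5.2 and sv2ba, and between them for FKBP5. For SLC43A2 the gap to BaAQ is small, and BaAQ also lies above Control.

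Immune genes that passed were all higher. Of 82 innate immunity and inflammation genes 13 (15.9%) were higher, against 3.09% of all tested genes, and 69 did not pass. The median log2 fold change over the list was 0.097, and 8 genes were higher without BEZO 3 and 12 with DESeq2. CXCR4 (ENSDARG00000057633), a chemokine receptor that guides migrating cells, was at 3.39, 4.54 and 2.90 CPM in Control and 8.87, 7.88 and 8.68 CPM in BEZO, without overlap (1.22 ± 0.17, adjusted p = 1.16e-04). STAT3, a transducer of cytokine signals, rose from 19.7, 21.9 and 21.0 to 37.0, 30.0 and 31.2 CPM (0.65 ± 0.11). Interferon signalling and antigen presentation were represented by irf9, higher in every BEZO library than in any Control library (0.92 ± 0.18, adjusted p = 0.00337), and by b2m, the light chain of class I molecules, which rose by 1.01 ± 0.21. ANXA1, an annexin that limits inflammation and is also made by epidermis, rose by 0.37 ± 0.07. The cyclooxygenase gene ptgs1 rose by 0.82 ± 0.16. Immediate early genes shared this direction, with 7 of 39 (17.9%) higher and 1 (2.56%) lower, against 3.09% and 3.35% of all tested genes. The higher count was 4 without BEZO 3 or Control 2 and 11 without BEZO 2. MYC (ENSDARG00000045695) rose by 0.48 ± 0.10 and CCN2, a target of the YAP pathway, by 0.42 ± 0.08.

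Synapse genes that passed were all lower. Of 106 neuron and synapse genes 11 (10.4%) fell and none rose, with 9 to 11 in the fits without 1 library, against 3.35% lower among all genes. Of 159 ion channel and receptor genes 7 (4.40%) fell and 1 rose, a share near that of all genes, and 4 fell without BEZO 1 and 5 with DESeq2. The gene sv2ba, of a synaptic vesicle glycoprotein, was at 12.3, 9.52 and 11.9 in Control, 3.26, 2.87 and 3.06 in BEZO and 9.19, 8.98 and 6.87 CPM in BaAQ. BEZO libraries were alike and far below both other groups (-1.86 ± 0.17, adjusted p = 5.22e-07). SLC17A7 (ENSDARG00000016480), which loads glutamate into vesicles, was at 1.91, 3.46 and 2.76 CPM in Control and 1.17, 0.741 and 0.408 CPM in BEZO (-1.79 ± 0.36, adjusted p = 0.00322). Both serve synapses of brain and, in mammals, of retina. Genes of more general neuronal use changed less. The tubulin gene tubb5 was at 875, 933 and 882 CPM in Control and 609.9, 635 and 609 CPM in BEZO (-0.54 ± 0.06, adjusted p = 3.82e-06). TUBA1A fell by 0.44 ± 0.07, SNAP25 (ENSDARG00000058117), a fusion protein of synaptic vesicles, by 0.40 ± 0.08 and ATP1B2, a sodium pump subunit, by 0.97 ± 0.13. Among receptors, gabrr3a, of a GABA receptor class best known from retina, fell by 1.14 ± 0.23 and GRIN1 (ENSDARG00000025728), the shared subunit of NMDA receptors, by 0.41 ± 0.09.

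Eye genes moved with these falls. Of 59 lens genes 37 were lower and 1 higher, of 85 photoreceptor and retina genes 34 were lower and none higher, and of 7 genes of the eye pigment epithelium 2 were lower. Summed levels were 5592 to 6092 CPM in Control, 3782 to 4212 CPM in BEZO and 4878 to 6005 CPM in BaAQ for the lens list, 2150.1 to 2276 CPM in Control, 1565 to 1705 CPM in BEZO and 2017 to 2068 CPM in BaAQ for photoreceptor and retina and 142 to 144 CPM in Control, 120.2 to 126 CPM in BEZO and 100.1 to 118 CPM in BaAQ for the pigment epithelium. None of the 3 lists was near 0 in BEZO. No neuron and synapse gene stands on an eye list, but the list does not separate brain from retina, and the part of the eye in its falls was not tested. Some genes that no eye list held are also best known from photoreceptors. OPN1SW, a cone opsin, was at 3.60, 3.25 and 2.54 CPM in Control and 0.753, 0.093 and 0.816 CPM in BEZO (-2.46 ± 0.38, adjusted p = 2.72e-04). Its BEZO 2 value lies below a floor of 3 reads, which is 0.275 CPM in that library, so the size of the fall is uncertain. ELOVL4 (ENSDARG00000027495), which elongates very long chain fatty acids and is abundant in mammalian photoreceptors, was at 25.0, 18.4 and 21.8 CPM in Control and 8.87, 7.78 and 7.55 CPM in BEZO (-1.41 ± 0.14, adjusted p = 8.14e-07).

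Hair cells are the sensory cells of the ear and lateral line. Of 42 listed genes of these organs 4 (9.52%) were lower and none higher, against 3.35% and 3.09% of all tested genes. POU4F3, a transcription factor of hair cells, was at 5.09, 5.62 and 5.15 in Control, 2.93, 2.78 and 3.06 in BEZO and 4.77, 4.49 and 5.64 CPM in BaAQ. The log2 fold change against Control was -0.86 ± 0.18 (adjusted p = 0.005). The direct difference from BaAQ was -0.77 (95% interval -1.16 to -0.37, adjusted p = 0.0211). It did not pass with DESeq2 or without any one of BEZO 1, BEZO 2, BEZO 3 and BaAQ 3. The gene stm, of a matrix protein of otoliths, fell by 0.33 ± 0.07. FABP7 (ENSDARG00000007697), a fatty acid binding protein of radial glia, fell from 478, 421 and 351 to 283, 292 and 277 CPM (-0.55 ± 0.09). It was 1 of 2 lower among 37 glia genes, of which 3 were higher, and the higher count was 0 or 1 without Control 2, Control 3 or BEZO 3. Among 106 axon guidance genes 7 (6.6%) were lower and 1 (0.943%) higher, or 4 lower without BEZO 2, BEZO 3 or Control 2. CNTN1, an adhesion molecule of axons, fell by 0.72 ± 0.11.

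Muscle and energy genes were lower for a minority. Of 110 skeletal muscle genes 9 (8.18%) were lower and 3 (2.73%) higher, against 3.35% and 3.09% of all tested genes. Without BEZO 1 or BEZO 3, 5 were lower. CKMT2 (ENSDARG00000069615), a mitochondrial creatine kinase, was at 17.5, 15.8 and 16 in Control, 4.10, 3.89 and 4.59 in BEZO and 12.6, 10.32 and 6.98 CPM in BaAQ. It was among the largest falls (-1.97 ± 0.17, adjusted p = 2.73e-07), whereas the second gene with that symbol, ENSDARG00000039929, was at -0.31 ± 0.08, a call that ended without any one of BEZO 1, BEZO 3, Control 1 and Control 3. The fast myosin genes myhz1.3 and myhz2 fell by 0.57 ± 0.07 and 0.39 ± 0.07, and they may share reads with further copies. The gene tcap, of a Z-disc protein, was at 11.4, 8.22 and 6.53 in Control, 22.4, 17.5 and 32.9 in BEZO and 28.8, 45.05 and 61.4 CPM in BaAQ, a rise with wide spread in both exposed groups (1.501 ± 0.26 for BEZO, adjusted p = 8.73e-04). Myoglobin, mb, an oxygen store of muscle named here after a look at its values, was at 102, 104 and 87.9 and 48.7, 39.9 and 45.3 CPM (-1.13 ± 0.09, adjusted p = 4.22e-08).

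Of 13 tested transcripts of the mitochondrial genome 5 (38.5%) were lower and none higher, against 3.35% and 3.09% of all tested genes. Without BEZO 1 or without BEZO 3, 3 were lower. MT-ATP6, a subunit of ATP synthase, was at 3208, 3109 and 3011 CPM in Control and 2369, 2437 and 2375 CPM in BEZO. The fall was small next to the level, but the groups were clearly apart (-0.38 ± 0.06, adjusted p = 3.13e-04). MT-ND1 and MT-ND2, subunits of complex I, fell by 0.32 ± 0.06 and 0.34 ± 0.06. Nuclear genes of the respiratory chain gave 4 of 70 (5.71%) lower and none higher, a share not far from the 3.35% lower of all tested genes. The lower count was 2 without BEZO 3 or Control 1. Of the 70 estimates 13 were positive, with a median log2 fold change of -0.12. The cytochrome c gene cycsb fell by 0.50 ± 0.08 and the ADP/ATP carrier gene SLC25A4 by 0.37 ± 0.07.

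Glycolysis and hypoxia genes were split, with 7 of 69 higher and 6 lower, and the higher count was 2 without BEZO 3, 3 without Control 3 and 4 without Control 1 or Control 2. The glucose carrier gene slc2a3a rose from 33.0, 30.9 and 33.6 to 49.1, 46.4 and 49.0 CPM (0.57 ± 0.08, adjusted p = 5.45e-05) and GPI, of early glycolysis, by 0.55 ± 0.10. FBP2 and PGAM2, enzymes of muscle, fell by 0.72 ± 0.12 and 0.45 ± 0.08. Among 74 lipid genes 10 (13.5%) were lower and 4 (5.41%) higher, against 3.35% and 3.09% of all tested genes. The lower count was 6 without BEZO 3 or Control 2, and the higher count 2 without BEZO 3, Control 2 or Control 3. DGAT2, which makes triglyceride, was at 56.0, 70.3 and 64.9 CPM in Control and 30.7, 47.5 and 38.6 CPM in BEZO (-0.72 ± 0.14, adjusted p = 0.00189). GPAM, of the first step of that pathway, fell by 0.44 ± 0.07, and fabp4b, of a fatty acid binding protein, by 0.73 ± 0.13. In BaAQ fabp4b was lower still, at 9.89, 8.74 and 5.54 CPM, below all 3 BEZO libraries at 16.3, 16.4 and 15.2 CPM.

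The remaining large changes fell on genes that no list held. Among rises, zgc:163022 was at 7.84, 8.72 and 8.13 CPM in Control and 23.6, 30.6 and 24.7 CPM in BEZO, with a narrow Control group and about 3-fold higher levels in BEZO (1.67 ± 0.12, adjusted p = 2.16e-08). The ferritin gene fthl28, of an iron store, was at 4.56, 4.11 and 4.57 and 11.5, 12.2 and 12.9 CPM (1.47 ± 0.15, adjusted p = 1.87e-06), with reads that ferritin copies may share. The gene aifm4, of the apoptosis inducing factor family, rose from 16, 17.5 and 14.1 to 39.2, 40.8 and 34.7 CPM and was higher still in BaAQ, at 54.6, 67.1 and 71.6 CPM. The Polycomb gene cbx7a rose by 1.47 ± 0.25 and zgc:162608 by 1.54 ± 0.14. AASDH, si:ch211-57n23.4, ctss2.1 and si:dkeyp-34c12.1 complete the 15 largest rises named by rule, at 1.44 ± 0.22, 1.41 ± 0.29, 1.28 ± 0.25 and 1.88 ± 0.35.

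The largest fall named by rule was that of si:ch211-255g12.6, from 56.4, 54.3 and 39.5 CPM in Control to 7.44, 4.45 and 9.70 CPM in BEZO, with BaAQ at 36.3, 33.6 and 33.6 CPM. BEZO was several-fold below both other groups (-2.80 ± 0.17, adjusted p = 3.44e-09). The genes ponzr3 and ponzr4, of a family of small cysteine-rich proteins, were lower in BEZO and lower still in BaAQ. For ponzr4 the levels were 27.8, 34.0 and 37.1 in Control, 4.60, 10.9 and 10.4 in BEZO and 2.95, 1.09 and 1.64 CPM in BaAQ (-1.96 ± 0.20 for BEZO, adjusted p = 2.39e-06). The phosphatase gene ptprb was at 18.5, 15.1 and 18.4 and 5.85, 4.54 and 4.59 CPM (-1.78 ± 0.14, adjusted p = 5.99e-08). TMX3, a disulfide isomerase of the endoplasmic reticulum membrane, was at 9.32, 9.81 and 11.7 and 3.85, 2.41 and 2.86 CPM (-1.75 ± 0.18, adjusted p = 2.23e-06). Urate oxidase, uox, which degrades uric acid from purines, fell by 1.59 ± 0.22. The remaining falls named by rule were zgc:103625 at -1.88 ± 0.30, gjc4a.2 at -1.76 ± 0.36, lactbl1a at -1.59 ± 0.34, zgc:109965 at -1.54 ± 0.16 and TMEM120A (ENSDARG00000042379) at -1.52 ± 0.27. In BEZO 2 lactbl1a was at 0.278 CPM, near the floor of 3 reads.

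Of 3717 tested genes without a symbol 91 were higher and 92 lower (4.92% in all). The 4 with the smallest p all rose. As lists were matched by symbol, none of these genes could be set aside. Whether the 4 belong to a pathway set aside was not tested. ENSDARG00000014947 was at 10.8, 10.0 and 11.8 in Control, 37.5, 39.6 and 41.3 in BEZO and 18.8, 21.2 and 30.1 CPM in BaAQ, the highest in BEZO (log2 fold change 1.85 ± 0.13, adjusted p = 2.18e-08; direct difference from BaAQ 0.76 (95% interval 0.49 to 1.02)). For ENSDARG00000005039 the levels were 175, 151 and 144 CPM in Control and 434, 351 and 364 CPM in BEZO (1.29 ± 0.09). ENSDARG00000026039 and ENSDARG00000058980 rose by 1.83 ± 0.13 and 1.15 ± 0.09 in BEZO and were higher still in BaAQ, at 1088, 1095 and 1011 CPM and 439.6, 475 and 476 CPM against 17.4, 16.6 and 15.2 CPM and 38.3, 31.2 and 34.5 CPM in BEZO.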

How the data were processed

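RNA of 9 vials of zebrafish embryos was sequenced, 3 each of Control, BEZO and BaAQ. The deposited table holds raw counts of reads per Ensembl gene without normalization. Per the submitters' processing notes, CASAVA 1.8, FastQC, TopHat2, HTSeq and edgeR were used on the genome build Zv9. Options and the strand setting of the counting are not given in the sources used here, so reads of overlapping genes on opposite strands cannot be told apart. Per the labels' protocols, libraries were made from poly-A selected RNA with a ScriptSeq v2 kit.

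Groups were taken from sample titles. Counts were tested with edgeR 4.0.16 in R 4.3.3 (filterByExpr, TMM, quasi-likelihood) in 1 fit of the 3 group means over 9 libraries, with 6 residual degrees of freedom and a common biological coefficient of variation of 7.23%. BEZO minus Control and BEZO minus BaAQ are contrasts of that fit, Benjamini-Hochberg adjusted over 18860 genes. CPM, as edgeR computes them, are relative to the library total times its TMM factor. A floor of 3 reads is 0.208 to 0.370 CPM before TMM scaling, which covers counting error only. With 3 vials a group, p-values set differences against the spread between vials. The edgeR fit moderates that spread across genes, with a median of 13.8 prior degrees of freedom beside the 6 residual ones. The fit was tested on simulated counts.

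Symbols came from a gene name table by identifier, 20769 of 32434 matched, and 3172 identifiers shared a symbol with another. An identifier in brackets after a symbol marks such a shared symbol. Values of another gene with the symbol are given only for SLC7A3 and CKMT2. Genes were placed on 46 described lists and 5 set aside. List entries without a matching symbol could not be counted. One further list, and some genes that the naming rule gave, are not reported here. Members and lists were chosen with earlier results of these data known. Named by rule were the 15 largest rises and 15 largest falls and up to 4 members per list with the smallest p, each with a symbol, off the lists set aside, called in the main fit and without each of 6 libraries, at 1 CPM or more in mean and without overlap of groups. FKBP5, KLF9, ATF3, hsp70l and POMC were named whatever their p, and the 4 genes without symbol with the smallest p, which gave 137 genes with those tested. Other genes in the text were chosen after their values were seen. Alternatives were DESeq2 1.42.0, other size factors, filters and thresholds, the replicate number as a block, 6 libraries alone and each library left out. Library totals as the scale, and all alternatives for BEZO against BaAQ, were added after seeing the data. No sequence or position is printed. Figures were drawn with matplotlib 3.10.9 in Python 3.11.15.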

Additional observations from a re-analysis of the deposited data

Results flagged for a closer look

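Of the 137 genes named by rule, 7 had all 3 BEZO and all 3 BaAQ libraries on opposite sides of Control and also passed the direct test between the compounds, as did 83 of all 18860 tested genes. Most named genes had to lie apart from Control to be named, so these counts cannot be set against each other. Comparisons with Control share the Control libraries, so the direct difference of BEZO minus BaAQ is given, on the log2 scale. The mucin gene muc5.2 was at -1.44 (95% interval -1.66 to -1.21), alas2, of heme synthesis, at -1.38 (95% interval -1.63 to -1.13) and the keratin gene krt1-19d at -1.25 (95% interval -1.53 to -0.97), each lower in BEZO and higher in BaAQ than in Control. The complement genes c9 and c6.2 were at 0.67 (95% interval 0.53 to 0.80) and 1.02 (95% interval 0.75 to 1.298), the keratin gene krt97 at 0.76 (95% interval 0.63 to 0.89) and CP, ceruloplasmin, at 0.92 (95% interval 0.75 to 1.08), each higher in BEZO and lower in BaAQ than in Control. All 7 differences passed with DESeq2, with median ratio factors or library totals as the scale, with the replicate block and without each BEZO or BaAQ library. The side of Control on which BaAQ lay was read from its libraries, and no p is given for BaAQ against Control. The log2 fold change of BaAQ minus Control was 0.27 ± 0.10 for muc5.2, 0.60 ± 0.11 for alas2 and 0.285 ± 0.12 for krt1-19d. It was -0.18 ± 0.065 for c9, -0.31 ± 0.14 for c6.2, -0.43 ± 0.06 for krt97 and -0.41 ± 0.08 for CP. No cause was tested.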

How the results depend on the processing

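Genes higher and lower in BEZO than in Control, 582 and 632, were 292 and 328 at an adjusted p under 0.01, 39 and 60 in a test against a 1.5-fold change, and 345 to 521 and 401 to 612 when single libraries were left out. They stayed within 1.5 times of the main counts with DESeq2 (483 and 526), median ratio size factors (584 and 631), no filter (752 and 920), a stricter filter (585 and 621) and 6 libraries alone (660 and 721). Library totals alone gave 766 and 507, or 60.2% of calls higher against 47.9%, and moved the median of all genes from -0.001 to 0.036 on the log2 scale. Replicate numbers did not pair the samples, since libraries of one number correlated in their deviations at -0.0345 to 0.0149 and those of different numbers at -0.0507 to 0.0416; with the replicate block 562 genes were higher and 622 lower, and all 137 named genes kept direction and call. Genes called against Control that differed from BaAQ were 126 higher and 216 lower, and 79 to 107 and 155 to 188 without single libraries. DESeq2 ended the calls of FKBP5 (adjusted p = 0.198), CYP2R1 (0.165) and apoa4b.2 (0.0723), the threshold of 0.01 that of PROX1, and the 1.5-fold test those of 102 of 137 named genes. No named gene turned direction. Without a filter on low counts more genes were tested and lists with low genes gained calls, the respiratory chain list from 4 to 10 lower and the immediate early list from 7 to 12 higher. Where a list's count moved with 1 library, the cause was not tested. The totals of 9620666 to 14435626 reads limit what low genes can show.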

Other observations

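Of 38 Hox genes, which set position along the body axis, 6 (15.8%) were higher and 1 lower, against 3.09% and 3.35% of all tested genes, and 4 to 6 were higher when single libraries were left out. HOXB3 was at 96.8, 93.4 and 91.8 CPM in Control and 117, 121 and 118 CPM in BEZO, a small but clean separation (0.34 ± 0.06, adjusted p = 0.00147). HOXB5 (ENSDARG00000054030) rose by 0.48 ± 0.08 and hoxb6b by 0.53 ± 0.10. Of 122 genes for developmental signals 5 were higher and none lower, or 11 higher with library totals alone and 2 without BEZO 3 or Control 2. The Notch ligand gene jag1a rose by 0.41 ± 0.09 and FST (ENSDARG00000052846), follistatin, an inhibitor of activin, by 0.43 ± 0.09. Neural and patterning transcription factors gave 4 of 121 higher and 5 lower, both counts near the shares of all genes, and 1 higher without BEZO 3 or Control 3. Among the 5 lower, foxg1b, of the forebrain, fell by 0.47 ± 0.09, BHLHE23 by 0.56 ± 0.11 and PROX1, also of lymphatic endothelium, by 0.29 ± 0.07. The list as a whole did not fall, as 88 of the 121 estimates were positive with a median log2 fold change of 0.091. Endothelium genes gave 3 of 41 higher and 1 lower, with 1 higher without BEZO 2 or BEZO 3, and the gene she rose by 0.38 ± 0.08.

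Of 35 pigment cell genes 6 (17.1%) were lower, against 3.35% of all tested genes, and none was higher. The gene pmelb, of the fibrils inside melanosomes, was at 79.8, 72.0 and 74.1 CPM in Control and 47.2, 51.3 and 46.7 CPM in BEZO, without overlap (-0.64 ± 0.08, adjusted p = 2.55e-05), and pnp4a, of iridophores, fell by 0.49 ± 0.10. The eye pigment epithelium also holds melanosomes, 2 of its 7 listed genes were lower, and its part in these values was not tested. In the islet, GCG, the glucagon precursor, was at 7.95, 7.64 and 6.17 in Control, 11.1, 13.9 and 12.0 in BEZO and 7.37, 5.58 and 7.49 CPM in BaAQ, highest in BEZO (0.78 ± 0.15, adjusted p = 0.00209). Pancreas and gut genes gave 2 of 29 higher and 2 lower. Of 39 heart genes 3 were lower and none higher, and FHL2 (ENSDARG00000003991) was at 7.21, 4.47 and 5.73 and 3.01, 2.41 and 2.65 CPM (-1.08 ± 0.21). Retinoid genes were lower for 2 of 37, with RBP2 (ENSDARG00000093774), a cellular retinol binding protein, at 55.1, 55.7 and 51.4 and 35.0, 33.5 and 35.7 CPM (-0.64 ± 0.08). CYP2R1, a vitamin D hydroxylase, was at 6.14, 7.14 and 7.11 and 0.836, 4.63 and 2.04 CPM (-1.46 ± 0.33, adjusted p = 0.00772), a call that DESeq2 did not make, and P450 genes outside the CYP1 family gave 1 of 30 in each direction.

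No mitosis gene of 60 passed with edgeR or with DESeq2, and at an unadjusted p under 0.05 5 were higher and 2 lower, where all genes gave 9.53% and 10.03%. DNA replication genes were lower for 2 of 53 and DNA repair genes for 1 of 48, neither higher for any. Without BEZO 2, 9 replication genes were lower. Of 70 ribosomal protein genes 4 were higher and none lower, or 2 higher without any one of the 6 libraries, and RPL11 rose by 0.31 ± 0.07. Ribosome biogenesis and translation factors gave 4 of 97 higher, or 2 without BEZO 1, BEZO 3, Control 2 or Control 3, with EIF6, of the large ribosomal subunit, at 0.54 ± 0.11. Proteasome genes gave 1 of 48 higher and 4 lower, but 0 lower without BEZO 1 or BEZO 3, 1 with library totals alone and 7 without BEZO 2. Cholesterol synthesis genes gave 1 of 25 higher, FDPS by 0.43 ± 0.09, and 2 lower. Nuclear receptors gave 1 of 53 higher and 3 lower, kidney genes 1 of 28 lower, cilia and dynein genes 1 of 43 in each direction and neuropeptide and pituitary genes 1 of 20 higher. The lists set aside gave 3 of 13 higher and 1 lower for the aryl hydrocarbon receptor and 12 of 39 higher and 2 lower for NRF2. Symbols matched 11 of 17 entries of the first list and 31 of 41 of the second, so these counts do not cover the whole lists.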
